A study of Rattus norvegicus with 18 samples.

Results

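The 6 genes described here encode enzymes of the pentose phosphate pathway in the rat left ventricle. They are Pgls and Pgd of the oxidative branch, and Rpe, Rpia, Tkt and Taldo1 of the non-oxidative branch. They were chosen by symbol, with the rise of Tkt in the obese hearts already known. Of these 6 genes, 2 symbols (Tkt and Pgd) were found among the 6588 gene identifiers that the authors listed as changed in any of 3 comparisons, and 4 (Pgls, Rpe, Rpia and Taldo1) were found in none. The values of Tkt and of the row named Pgd are therefore a description of the genes chosen, and no test is built on them.

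Polyadenylated RNA was sequenced from left ventricles of 18 male rats in 3 groups of 6. ZSF1 Obese rats have hypertension with metabolic syndrome and stood for heart failure in which ejection fraction is preserved, ZSF1 Lean rats are hypertensive, and WKY (Wistar Kyoto) rats were the control strain. Both ZSF1 groups differ from WKY in strain, so strain and disease cannot be told apart against WKY, and the labels give no age. The obese ZSF1 phenotype is known to come from defects in the leptin receptor gene, although the labels name no allele. The values used are the authors' lists of changed genes, with a linear fold and an adjusted p for each gene, from 6 rats against 6. Levels per rat, and so the spread within a group and the sequencing depth, are unknown here.

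The pentose phosphate pathway takes glucose 6-phosphate away from glycolysis. Its oxidative branch releases NADPH, the electron donor for glutathione and thioredoxin reduction, for lipid synthesis and for NADPH oxidases, and leaves ribulose 5-phosphate. Its non-oxidative branch is reversible and turns pentoses into fructose 6-phosphate and glyceraldehyde 3-phosphate or the reverse, so that ribose for nucleotides can be made without NADPH. In the heart the pathway is known as a small consumer of glucose and as a source of NADPH against oxidants.

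In the oxidative branch, the symbol Pgd stood for a row that was lower in ZSF1 Obese hearts. Pgd encodes 6-phosphogluconate dehydrogenase, which makes the second NADPH of the pathway. The row with this symbol (ENSRNOG00000057626) had a fold of 0.438 for ZSF1 Obese against ZSF1 Lean in the authors' deposited table (adjusted p = 7.86e-54). Against WKY the fold was 0.444 in the authors' deposited table (adjusted p = 5.13e-34). Its description, however, is that of kinesin family member 1B, a motor protein that moves cargo along microtubules and is encoded by Kif1b. No row with the symbol Kif1b was found in any of the 3 tables. In the RefSeq annotation of GRCr8, Kif1b is the next gene to Pgd on chromosome 5 and lies on the same strand. Which of these genes the reads came from cannot be told from the tables, so the fall is that of the row and is not assigned to 6-phosphogluconate dehydrogenase. On the fold scale the row lies near the edge of the lists, which hold folds of 2 or more and 0.5 or less. A larger fall was listed for 82.1% of the 2655 lower genes in the comparison with ZSF1 Lean and for 84.7% of the 2625 lower genes in that with WKY. Pgls, which encodes 6-phosphogluconolactonase, the enzyme that precedes Pgd, was in none of the lists.

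In the non-oxidative branch, Tkt was higher in ZSF1 Obese hearts than in either other group. Tkt encodes transketolase, which moves 2-carbon units between sugar phosphates with thiamine diphosphate as its cofactor. Its fold (ENSRNOG00000016064) was 3.86 for ZSF1 Obese against ZSF1 Lean in the authors' deposited table (adjusted p = 8.96e-135). Against WKY it was 3.32 in the authors' deposited table (adjusted p = 1.44e-52). By contrast, Taldo1, which encodes transaldolase, the other transferase of this branch, was not listed in either comparison. Rpe, the epimerase that makes xylulose 5-phosphate, and Rpia, the isomerase that makes ribose 5-phosphate, were not listed either. An unlisted gene may have changed by less than 2-fold, may have missed the adjusted p of 0.05 or may not have been tested, and these cases cannot be told apart.

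For comparison, 22.8% of the 23154 RefSeq protein-coding symbols were listed for ZSF1 Obese against ZSF1 Lean, 12.0% as higher and 10.7% as lower. Against WKY the share was 22.9%, with 12.3% higher and 10.6% lower. Of the 6 pathway genes, 2 symbols were listed in each of these comparisons, 1 higher and 1 lower, and nothing is read from that count because the genes were chosen with it known. The RefSeq total includes genes that the heart does not express, so a share of expressed genes would be larger. Both comparisons use the same 6 obese rats and so are not independent of each other.

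None of the 6 genes was listed for ZSF1 Lean against WKY, where the authors listed 233 genes, or 0.881% of the RefSeq protein-coding symbols (0.592% higher and 0.289% lower). Of those 233 genes, 63.9% were higher and 36.1% lower in ZSF1 Lean. The largest adjusted p in that list was 0.000347, against 0.0498 and 0.0499 in the obese lists, so a gene may be missing from it at an adjusted p that the other lists include. Dividing the fold against WKY by the fold against ZSF1 Lean in the authors' deposited tables gave 0.858 for Tkt and 1.01 for the row named Pgd. Each quotient stands for the level in ZSF1 Lean over that in WKY if both comparisons were scaled alike, which was not stated, and both lie inside the range of 0.5 to 2 that the lists leave out.

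**Figure D1:**
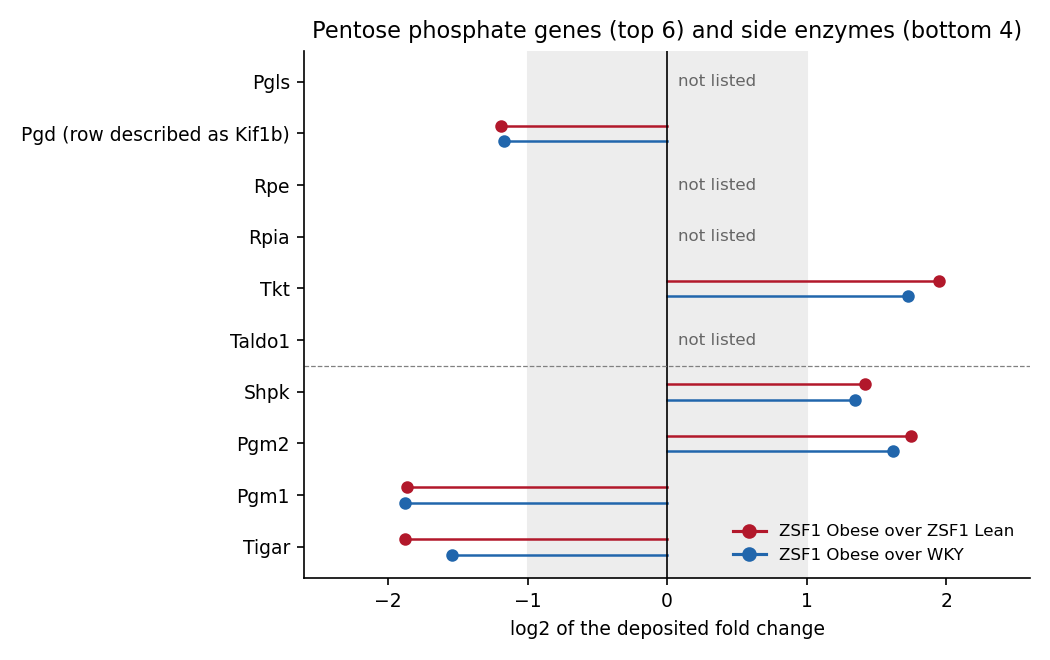
Horizontal lines give the log2 of the authors' deposited fold change for the 6 pathway genes (above the dashed line) and 4 listed side enzymes (below it), with ZSF1 Obese over ZSF1 Lean in red and ZSF1 Obese over WKY in blue. Grey marks folds between 0.5 and 2, which the lists do not hold. Tkt stands at 1.95 and 1.73 and the row named Pgd at -1.19 and -1.17, and the other 4 pathway genes were not listed.

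The sequences before the annotated starts of Tkt and Pgd are shown because these symbols are the listed ones. Each is the 250 bases before the RefSeq start on the gene's own strand in GRCr8. The window of Tkt is chr16:5729982-5730231 on the plus strand, and that of Pgd is chr5:164882030-164882279 on the minus strand. Capitals mark matches, on either strand, to GGGCGG (the GC box) or CCAAT.
Tkt: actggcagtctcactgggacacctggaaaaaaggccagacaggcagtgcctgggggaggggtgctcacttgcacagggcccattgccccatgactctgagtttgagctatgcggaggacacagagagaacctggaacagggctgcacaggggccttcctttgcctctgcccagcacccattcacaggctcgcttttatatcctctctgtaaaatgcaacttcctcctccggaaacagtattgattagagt
Pgd: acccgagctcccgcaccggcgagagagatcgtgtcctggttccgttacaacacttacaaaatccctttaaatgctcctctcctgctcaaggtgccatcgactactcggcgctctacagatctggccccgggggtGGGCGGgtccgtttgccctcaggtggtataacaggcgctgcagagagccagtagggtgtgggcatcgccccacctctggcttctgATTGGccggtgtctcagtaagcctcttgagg
Of the 4 motifs searched, the window of Tkt held none, and that of Pgd held 1 GGGCGG and 1 CCAAT, with CCAAT read from the opposite strand as ATTGG. Neither window held TGACNNNGC, the core of the antioxidant response element, or the E-box CACGTG. Over the 33469 windows of the same length, 30.5% held GGGCGG, 34.0% held CCAAT, 10.1% held TGACNNNGC and 5.59% held CACGTG. The RefSeq span of Tkt begins before its window, so another annotated start lies outside the letters shown. A match is a description of letters and not of a bound site.

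By adjusted p, Tkt was the 3rd of the 3045 genes listed as higher in ZSF1 Obese than in ZSF1 Lean hearts. Just before it stood Nucb2, which encodes nucleobindin 2, whose fold was 4.23 in the authors' deposited table (adjusted p = 7.01e-139). Just after it stood Rhog, a small GTPase gene, whose fold was 3.39 in the authors' deposited table (adjusted p = 3.95e-134). By fold it was less extreme, since 28.2% of the higher genes had a larger one. Against WKY, Tkt was 71st of 3084 higher genes by adjusted p, between Mfng, a glycosyltransferase gene (fold 3.92), and Heph, which encodes the copper ferroxidase hephaestin (fold 3.58), in the authors' deposited table. A larger fold than that of Tkt was listed there for 41.6% of the higher genes. RefSeq names 1 pseudogene each for Tkt and Pgd and 2 for Taldo1, and how reads that fit both copies were counted is not stated.

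**Figure D2:**
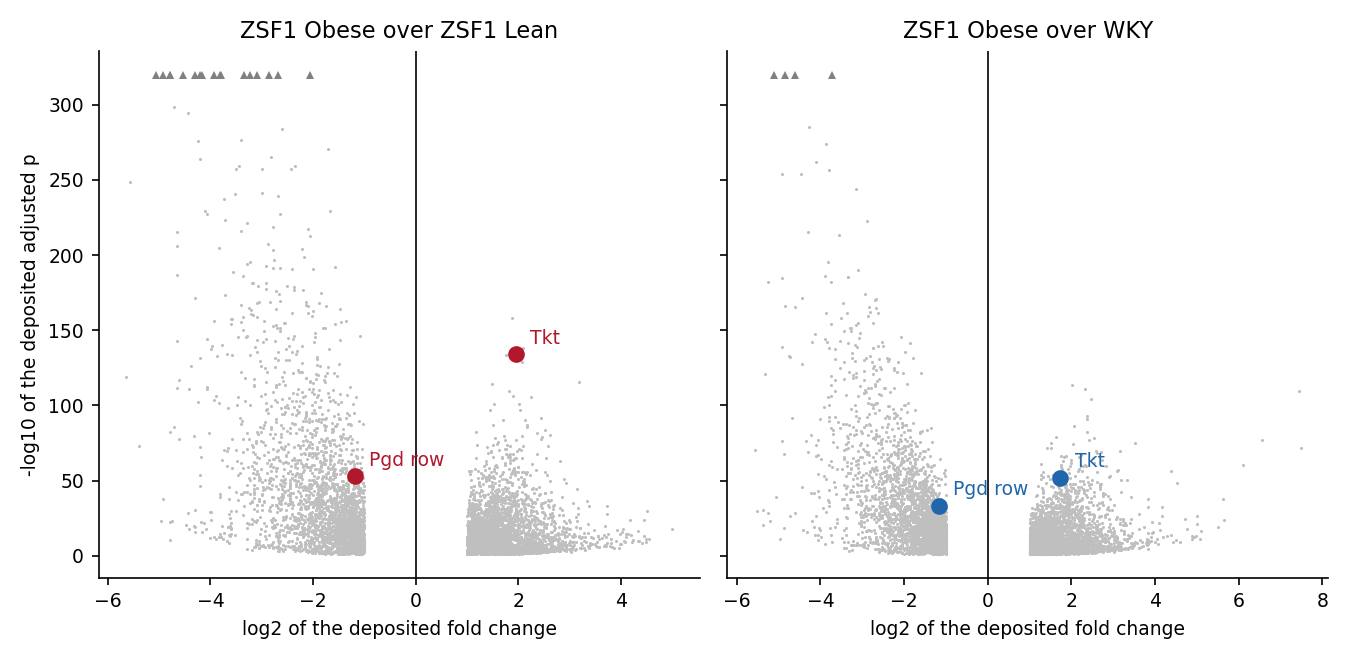
Each grey point is a gene listed by the authors, with the log2 of its fold on the x axis and minus log10 of its adjusted p on the y axis, for ZSF1 Obese over ZSF1 Lean (left) and over WKY (right). Triangles at the top are genes whose adjusted p was given as 0. Tkt lies among the highest points on the right side of the left panel. In the right panel it was 71st of the 3084 higher genes by adjusted p.

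The genes most like Tkt were taken as the 5 named genes with the nearest pair of log2 folds over the 2 obese comparisons, among 4558 listed in both obese tables and absent from the lean one. Nearest was Krt8, which encodes keratin 8 and is at home in simple epithelia, with folds of 3.89 against ZSF1 Lean and 3.36 against WKY in the authors' deposited tables (distance 0.02 on the log2 scale). Sertad4 had 3.97 and 3.32, Sncaip had 3.76 and 3.29, and Cnrip1 had 3.97 and 3.39 in the authors' deposited tables. Egfl7, a secreted factor gene of the endothelium, had 3.94 and 3.23 in the authors' deposited tables. With only 2 values per gene and the obese rats shared between them, the likeness is a closeness of folds.

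Around the pathway, 132 genes in 10 lists were read for the same comparisons. Of these, 23 rose and 47 fell in ZSF1 Obese against ZSF1 Lean, while 53.4% of all 5700 listed genes rose and 46.6% fell. Against WKY 25 rose and 46 fell, beside 54.0% and 46.0% of all 5709 listed genes. The median fold over all listed genes was 2.1 and 2.11. These medians lie at the edge of the lists, which hold no folds between 0.5 and 2 and slightly more rises than falls. They do not stand for a typical change. The lists were written with earlier results of these data known, so their counts describe the genes and are no independent support. Beside the counts of each list below, 12.0% of all RefSeq protein-coding symbols were listed as higher and 10.7% as lower against ZSF1 Lean. Against WKY these shares were 12.3% and 10.6%. Where a gene below has a pair of folds, they are those of ZSF1 Obese over ZSF1 Lean and then of ZSF1 Obese over WKY.

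Side enzymes of the pathway moved in both directions. Of 8 such genes, 2 rose and 2 fell in both obese comparisons. Shpk encodes sedoheptulokinase, which phosphorylates the free 7-carbon sugar to the sugar phosphate that transketolase also handles. It had a fold of 2.68 against ZSF1 Lean (adjusted p = 1.69e-07) and 2.55 against WKY (adjusted p = 3.83e-06) in the authors' deposited tables. Pgm2, whose product acts mainly on pentose 1-phosphates and so joins nucleoside breakdown to ribose 5-phosphate, had folds of 3.36 and 3.07 in the authors' deposited tables. Its relative Pgm1, the phosphoglucomutase of glycogen metabolism, stood at 0.274 against ZSF1 Lean and 0.272 against WKY in the authors' deposited tables. Tigar, a phosphatase known to lower fructose 2,6-bisphosphate and to send glucose towards the oxidative branch, stood at 0.272 (adjusted p = 6.55e-169) and 0.344 (adjusted p = 5.08e-40) in the authors' deposited tables. H6pd, Rbks and the transketolase-like genes Tktl1 and Tktl2 were not listed.

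Among listed genes that share intermediates with the pathway in glycolysis, more fell than rose. Of 20, 7 fell, 4 rose and 9 were not listed against ZSF1 Lean (median fold of the listed 0.325), and 11 fell, 5 rose and 4 were not listed against WKY (median 0.419). Hexokinases supply glucose 6-phosphate, and both forms usual in heart muscle fell, with Hk1 at 0.382 and 0.376 and Hk2 at 0.287 and 0.247 in the authors' deposited tables. Hk3, a form of white blood cells, rose with folds of 12.4 and 8.69 in the authors' deposited tables. Pfkm, the muscle phosphofructokinase that uses fructose 6-phosphate, stood at 0.123 and 0.139 in the authors' deposited tables. Tpi1, which links both triose phosphates, stood at 0.144 and 0.151 in the authors' deposited tables. Among the kinases that set fructose 2,6-bisphosphate, the heart form Pfkfb2 fell to 0.325 and 0.237, while Pfkfb3 rose with folds of 2.66 and 2.53 in the authors' deposited tables. Gapdh and Gpi were listed against WKY alone, at 0.429 and 0.5 in the authors' deposited table, and for these, as for other genes listed in 1 comparison alone, a difference between the comparisons was not tested.

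Ribose 5-phosphate leaves the pathway for nucleotide synthesis, and most listed genes of that route fell. Of 28 genes, 9 fell and 4 rose against ZSF1 Lean, with a median fold of 0.356 among those listed. Against WKY 8 fell and 4 rose, with a median of 0.410. Prps2, one of the synthetases that turn ribose 5-phosphate into phosphoribosyl pyrophosphate, rose with folds of 3.05 and 3.84 in the authors' deposited tables. The next enzymes of purine synthesis were lower. Ppat, the committed step, stood at 0.262 and 0.285, Gart at 0.356 and 0.415, and Paics at 0.237 and 0.221 in the authors' deposited tables. Atic, which closes the purine ring, stood at 0.186 and 0.173 in the authors' deposited tables. Impdh1, on the way to guanine nucleotides, rose with folds of 2.85 and 3.03 in the authors' deposited tables. The pyrimidine genes divided, with Ctps1 at 0.240 and 0.406 and its relative Ctps2 at 2.24 and 2.14 in the authors' deposited tables.

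Transketolase shares thiamine diphosphate with mitochondrial and peroxisomal enzymes, and those listed all fell. Of 8 such genes, 6 fell and 0 rose against ZSF1 Lean (median fold 0.194), and 5 fell and 0 rose against WKY (median 0.131). Ogdh, of the 2-oxoglutarate dehydrogenase complex, stood at 0.030 and 0.035 in the authors' deposited tables, with an adjusted p given as 0 in both. Pdha1, of the E1 alpha subunit of pyruvate dehydrogenase, stood at 0.145 and 0.131 in the authors' deposited tables. Its partner Pdhb, of the E1 beta subunit, stood at 0.128 and 0.129 in the authors' deposited tables.

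**Figure D3:**
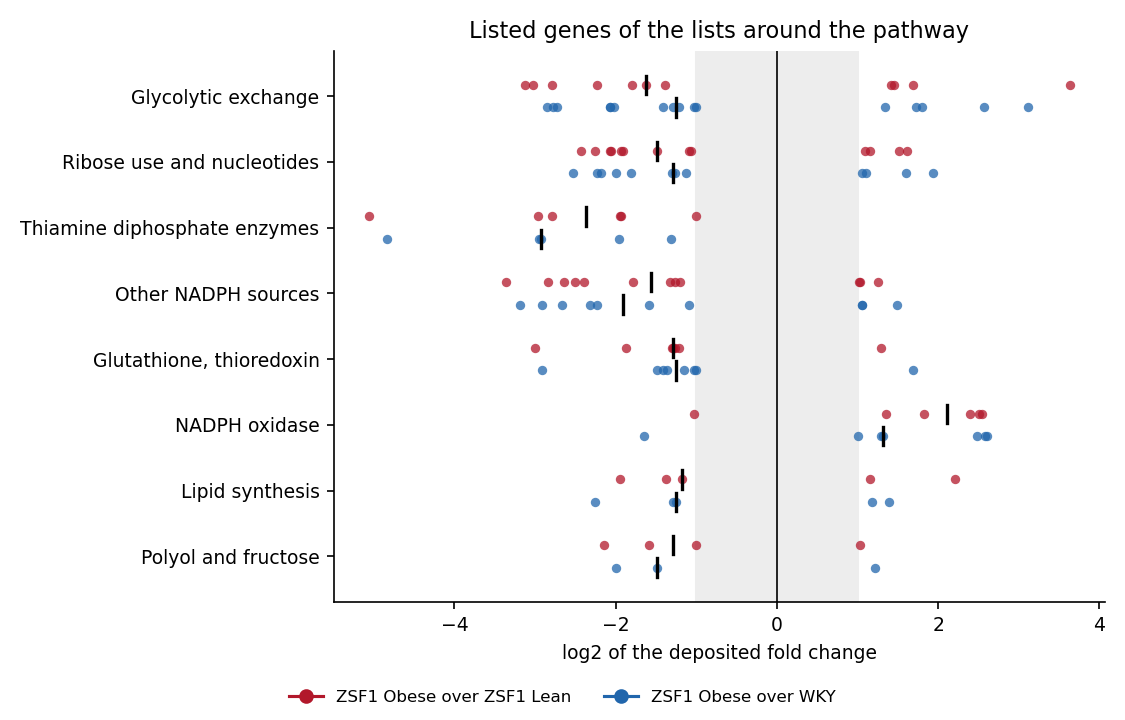
Each point is a listed gene of a list around the pathway, placed on the x axis by the log2 of the authors' deposited fold, with ZSF1 Obese over ZSF1 Lean in red above ZSF1 Obese over WKY in blue. Black bars mark the median of the listed genes, and grey marks folds that the lists do not hold. Medians lie below 0 in every list shown other than NADPH oxidase, where they correspond to folds of 4.33 and 2.48.

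Among the listed genes of a list of other NADPH sources and related enzymes, more were lower than higher in ZSF1 Obese hearts. Not every gene of that list need be a source of NADPH, so its counts and medians describe the list. Of 15 genes, 9 fell, 3 rose and 3 were not listed against ZSF1 Lean (median fold of the listed 0.339), and 7 fell, 3 rose and 5 were not listed against WKY (median 0.267). Nnt, the transhydrogenase of the mitochondrial inner membrane, stood at 0.097 and 0.11 in the authors' deposited tables. Idh2, the mitochondrial isocitrate dehydrogenase that makes NADPH, stood at 0.176 and 0.158 in the authors' deposited tables. The malic enzyme genes Me1, of the cytosol, and Me3, of mitochondria, stood at 0.140 and 0.133 and at 0.160 and 0.200 in the authors' deposited tables. Nadk2, which makes NADP inside mitochondria, stood at 0.191 and 0.213 in the authors' deposited tables. Its cytosolic relative Nadk was listed against WKY alone, at 2.08 times the WKY level in the authors' deposited table. Among folate enzymes, Mthfd1 stood at 0.289 and 0.334, while Mthfd1l rose with folds of 2.04 and 2.81 in the authors' deposited tables.

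Listed genes of NADPH use and related enzymes went in both directions within each list, with rises more frequent for NADPH oxidase. Not every gene of these lists need use NADPH itself, so the counts and medians describe the lists. Of 10 NADPH oxidase genes, 5 rose and 1 fell against ZSF1 Lean (median fold 4.33), and 6 rose and 1 fell against WKY (median 2.48). Cybb, the catalytic subunit of the phagocyte oxidase, had folds of 5.82 and 5.98, and its membrane partner Cyba had 5.70 and 6.11 in the authors' deposited tables. The cytosolic subunit Ncf4 had 5.28 and 5.58 in the authors' deposited tables. Ncf1, another cytosolic subunit of that oxidase, went the other way at 0.490 and 0.319 in the authors' deposited tables. Nox4, a constitutively active oxidase, had folds of 3.56 and 2.00 in the authors' deposited tables.

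Among the listed genes of the glutathione and thioredoxin systems, more fell than rose. Of 18 genes, 6 fell, 1 rose and 11 were not listed against ZSF1 Lean, and 7 fell, 1 rose and 10 were not listed against WKY. The median folds of those listed were 0.409 and 0.419. Prdx3, the mitochondrial peroxiredoxin, stood at 0.125 and 0.133, and Txnrd2, the mitochondrial thioredoxin reductase, at 0.272 and 0.376 in the authors' deposited tables. Gclm, a subunit of the enzyme that begins glutathione synthesis, stood at 0.432 and 0.390 in the authors' deposited tables. Gpx3, a secreted glutathione peroxidase gene, rose with folds of 2.44 and 3.23 in the authors' deposited tables. Gsr, which spends NADPH to reduce glutathione, was not listed. The NRF2 pathway is a transcription pathway known to raise pentose phosphate enzymes. Of 14 of its genes, 1 rose and 2 fell in each obese comparison, and 11 were not listed. The listed share of 21.4% was near the 22.8% and 22.9% of all RefSeq protein-coding symbols, so nothing is read from that count. The part of this pathway in the rise of Tkt was not tested. Maff, a small partner of NRF2, had folds of 2.28 and 3.46 in the authors' deposited tables. Nqo1, a classical NRF2 target, stood at 0.497 against ZSF1 Lean in the authors' deposited table and was not listed against WKY. Gclm and Txnrd1 belong to this list and to the glutathione and thioredoxin list.

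Lipid synthesis, another user of NADPH, showed no common direction, with 2 rises and 3 falls among 10 genes in each comparison. Fasn, the fatty acid synthase gene, was listed against WKY alone, at 2.62 times the WKY level in the authors' deposited table. Acaca, which makes malonyl-CoA, stood at 0.441 and 0.418 in the authors' deposited tables. In the polyol branch, which spends NADPH to reduce glucose, Akr1b1, the aldose reductase gene, stood at 0.334 and 0.358 in the authors' deposited tables. Of the 5 polyol and fructose genes, 3 fell and 1 rose against ZSF1 Lean, and 2 fell and 1 rose against WKY.

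**Figure D4:**
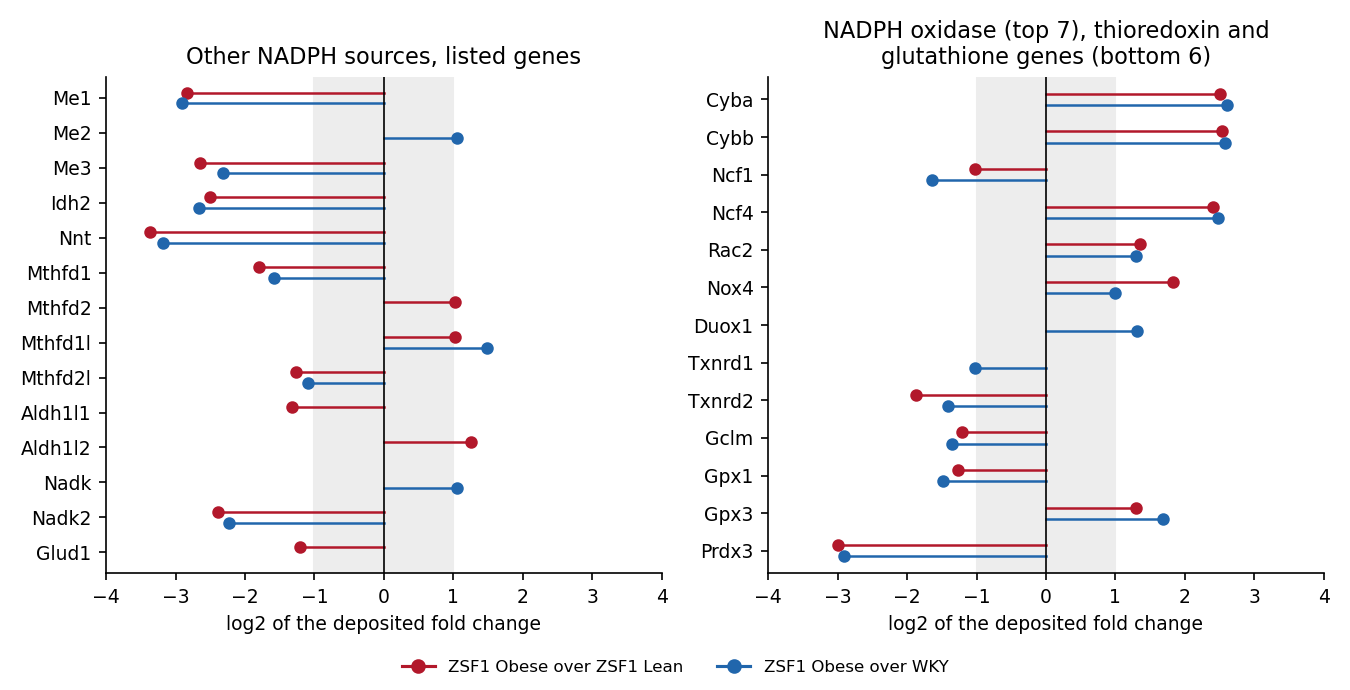
Lines give the log2 of the authors' deposited fold, with ZSF1 Obese over ZSF1 Lean in red and over WKY in blue. The left panel shows listed genes of the list of other NADPH sources and related enzymes. The right panel shows listed NADPH oxidase, thioredoxin and glutathione genes. A gene with 1 line was listed in 1 comparison, and grey marks folds that the lists do not hold. Nnt reaches -3.37 and -3.18, while Cybb reaches 2.54 and 2.58.

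Markers of cell types were also listed in the obese comparisons, with rises for some types, falls for cardiomyocytes and both directions for erythroid markers. Beside them, 12.0% of all RefSeq protein-coding symbols rose and 10.7% fell against ZSF1 Lean, and 12.3% rose and 10.6% fell against WKY. Of 12 cardiomyocyte markers, 6 fell and 0 rose in both obese comparisons, with median folds of 0.287 and 0.264. Macrophage markers rose in 11 of 12 cases against ZSF1 Lean (folds of 2.53 to 9.00) and in 12 of 12 against WKY (2.30 to 7.21), with 0 falls. Endothelial markers rose in 11 of 12 cases in both comparisons (median folds 3.51 and 3.23), fibroblast markers in 7 and 9 of 12, and lymphocyte markers in 9 and 8 of 12, with 0 falls. Neutrophil markers rose in 7 of 12 cases against ZSF1 Lean (median fold 10.3) and in 2 of 12 against WKY (median 3.68). The share against WKY, 16.7%, was near the 12.3% of all symbols. In ZSF1 Lean against WKY, 5 neutrophil markers fell and 0 rose. Of 10 erythroid markers, 4 rose and 2 fell against ZSF1 Lean, and 4 rose and 1 fell against WKY. In bulk tissue, more or fewer cells of a type and more or less RNA per cell cannot be told apart. The part of these markers in the rise of Tkt was not tested, since the lists hold no levels per rat.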

How the data were processed

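Total RNA of 18 rat left ventricles was isolated with an RNeasy kit and made into stranded poly(A) libraries, per the labels' protocols. The submitters' processing notes name HISAT2 2.1.0, HTSeq 0.11.2, DESeq2 1.22.2 and genome build Rnor_6.0, without roles. Settings and library batches are not stated. Per the file headers, the deposited columns hold a linear fold, which is a ratio of the first group over the second. They also hold an FDR, the authors' adjusted p-value. Checked on the values, folds were 2 or higher, or 0.5 or lower, with adjusted p below 0.05. No counts or values per rat were used, so depth, leave-one-out fits and unusual samples could not be examined. The p-values weigh a group difference against the spread between rats in the authors' fit. They do not measure that spread.

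Rows were matched by symbol, counted by direction, and summarised by the median of log2 folds, with Python 3.11.15 and pandas 2.3.3. No list test was made. Counting and distance steps were tested on simulated data. The motif step was tested for CCAAT alone, on a short made-up sequence that holds it on the opposite strand. Promoter letters are from the RefSeq starts of GRCr8. Promoter entries were at hand for 5 of the 6 genes, and Pgls, although annotated in RefSeq, had none.

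Genes named are the 6 members, listed genes of the lists, the 5 nearest to Tkt, and those beside Tkt by adjusted p. The members, lists and this rule were chosen with earlier results of these data known. Some other genes of the pathway and of the lists around it are not reported here.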

Additional observations from a re-analysis of the deposited data

How the results depend on the processing

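With folds limited to 3 or higher and 0.333 or lower, 1 pathway gene (Tkt) was left of 2 in each obese comparison. Leaving out the row described as kinesin family member 1B, an alternative chosen after seeing the data, also left 1 in each. An adjusted p under 0.01 or under 0.001, or matching by RefSeq synonym, left 2 in each obese comparison and 0 in ZSF1 Lean against WKY. The reference table held no Ensembl identifiers, so matching by identifier was not run. Of the genes around the pathway, the fold limit of 3 left 38 of 70 against ZSF1 Lean (9 higher, 29 lower), 37 of 71 against WKY (12 higher, 25 lower) and 1 of 3 in ZSF1 Lean against WKY. An adjusted p under 0.001 left 67, 70 and 3. Among single lists, 16 alternative counts moved by more than 1.5 times, each under the fold limit of 3. No paired analysis was possible because the groups share no replicate numbers and the files hold no values per rat, which also kept replicates from being left out.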

Other observations

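In ZSF1 Lean against WKY hearts, 3 of the genes around the pathway were listed, and all concern fructose 6-phosphate and fructose bisphosphates. Fbp2, the muscle fructose-bisphosphatase gene, had a fold of 6.87 for ZSF1 Lean against WKY (adjusted p = 6.24e-41) and of 5.94 for ZSF1 Obese against WKY (adjusted p = 3.10e-12) in the authors' deposited tables, and it was not listed for ZSF1 Obese against ZSF1 Lean. Pfkfb1, a gene of the enzyme that makes and removes fructose 2,6-bisphosphate, had folds of 2.48 for ZSF1 Lean against WKY and 3.48 for ZSF1 Obese against WKY in the authors' deposited tables. Pfkl, the liver-type phosphofructokinase gene, was listed for ZSF1 Lean against WKY alone, at 2.19 times the WKY level in the authors' deposited table. Of the 233 genes in that comparison 63.9% were higher in ZSF1 Lean. The comparisons share groups of rats and are not independent.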
